A study of Homo sapiens with 21 samples.

Results

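The authors' tables of m6A sites on circular RNAs listed 14636 distinct sites, and 7628 of them (52.1%) lay on circles that the authors classed as sense overlapping. Members were the entries of that class with distinct chromosome, start and end. They were carried by 1061 circles of 962 host genes, while 5940 sites lay on 1955 exonic circles and 1005 on 304 intronic circles. N6-methyladenosine (m6A) was mapped by MeRIP-seq, in which an antibody pulls down methylated RNA fragments and the reads are set against input RNA. The cells were FaDu, an established line derived from a hypopharyngeal squamous carcinoma. In it IGF2BP3 was knocked down with 2 hairpins, sh3-1 and sh3-2, and controls carried shCtr, with the genotype label WT and the treatment label "Blank control". MeRIP was made from 3 IP and 3 input libraries each of sh3-2 and shCtr, and junction reads of circles were counted in 3 libraries each of shCtr, sh3-1 and sh3-2. No m6A value for sh3-1 was analysed here, and a second hairpin therefore gives no check of the m6A differences. All groups come from 1 line, and nothing in the labels says that the replicates were separate cultures.

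Adenosines are methylated in RNA by a complex built around METTL3 and METTL14, the mark can be removed by FTO and ALKBH5, and it is read by proteins such as the YTH family and the IGF2BP family. IGF2BP3 binds methylated RNAs and is known for raising their stability and translation. Circular RNAs form when a downstream splice site is joined back to an upstream one, and the read that crosses this back-splice junction is what identifies a circle. A sense overlapping circle overlaps a gene on the gene's own strand without being classed as exonic or intronic.

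The sites were wide and set on a regular grid. Their median length was 259 bases (interquartile range 199 to 379, full range 1 to 6562), against 122 bases on exonic and 239 on intronic circles. The most frequent length was 199 bases, which 1793 sites (23.5%) had. All 439 sites shorter than 199 bases touched an end of their circle. Both edges lay on a common 20-base grid for 89.8% of the sites, compared with 76.1% on intronic and 13.4% on exonic circles. The longest site, of 6562 bases, lay on the circle of MKI67, the proliferation antigen Ki-67, at chr10:129901479-129908040 in hg19. In the authors' deposited table it was 1.24-fold higher with sh3-2, at an FDR of 0.337. Lengths therefore followed steps of 20 bases except where a circle's end cut a site, and a site is far wider than a methylated motif.

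Sites were spread unevenly over circles. A circle held a median of 4 sites, 227 circles (21.4%) held 1, and 248 circles (23.4%) held 10 or more and carried 4801 sites (62.9%). The circle of CDK11B, a cyclin-dependent kinase linked to splicing, held 140 sites over chr1:1599766-1671143. The circle of ECI1, a mitochondrial enzyme of fatty acid oxidation, held 129 sites over chr16:2204861-2296987. The histone methyltransferase EHMT1 had a circle with 79 sites, and SH3PXD2A, a scaffold protein of invadopodia, one with 74. The 5 circles with most sites together carried 6.75% of all sites. CDK11B has a near-identical neighbour, CDK11A, so reads of that circle are uncertain as to their gene. Host names here and below are the authors' labels for whole circles. Whether a site lay within the named gene was not checked.

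The circles had long genome spans, with a median of 17293 bases (160 to 99617). The predicted circle length in the authors' table equalled the genome span for every one of the 7628 sites. Only 441 of the 5940 exonic sites (7.42%) had a predicted length, and 0 of these had one under the span. The predicted length is therefore not read here as showing whether a circle holds introns. Site density had a median of 0.288 sites per kb of span (interquartile range 0.127 to 0.791). Sites per circle and span had a Spearman correlation of 0.45 over 1061 circles, given as a description, since a longer circle offers more windows. Only 194 circles (18.3%) carried a circBase ID.

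**Figure D1:**
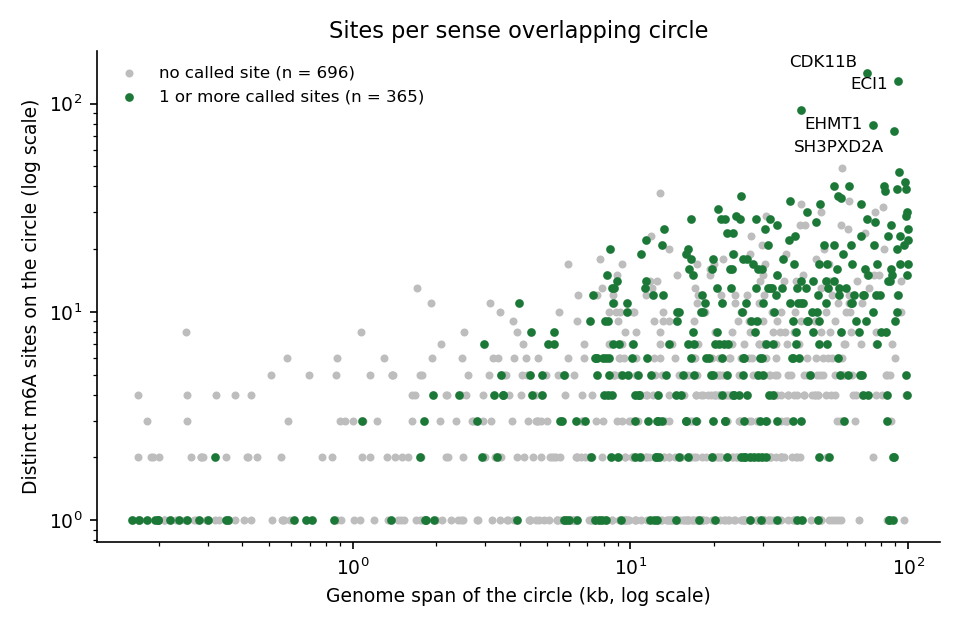
Distinct m6A sites on each of the 1061 sense overlapping circles (log scale) against the circle's genome span in kb (log scale). Green points are the 365 circles with at least 1 site past FDR 0.05 in the authors' table, and the named circles hold 74 to 140 sites each.

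Sites were found along the whole circle, more often in its outer parts. Of the 7628 site centres, 1304 (17.1%) lay within 500 bases of a circle end, while 8.42% of the length of these circles, averaged over sites, lies there. On exonic circles the shares were 48.6% of centres and 19.3% of length, and on intronic circles 34.9% and 28.6%. With each circle cut into 10 equal bins from its 5′ end, bin 1 held 13.5% of the centres, bin 10 held 16.0%, and bin 4, the lowest, held 7.76%. An end was touched by 839 sites, 444 at the 5′ end and 425 at the 3′ end, and 30 of these covered a whole circle. The median distance to the nearer end was 5116 bases. MeRIP reads do not have to cross a back-splice junction, so signal from the circle and from the linear RNA of the same gene cannot be told apart at these sites.

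**Figure D2:**
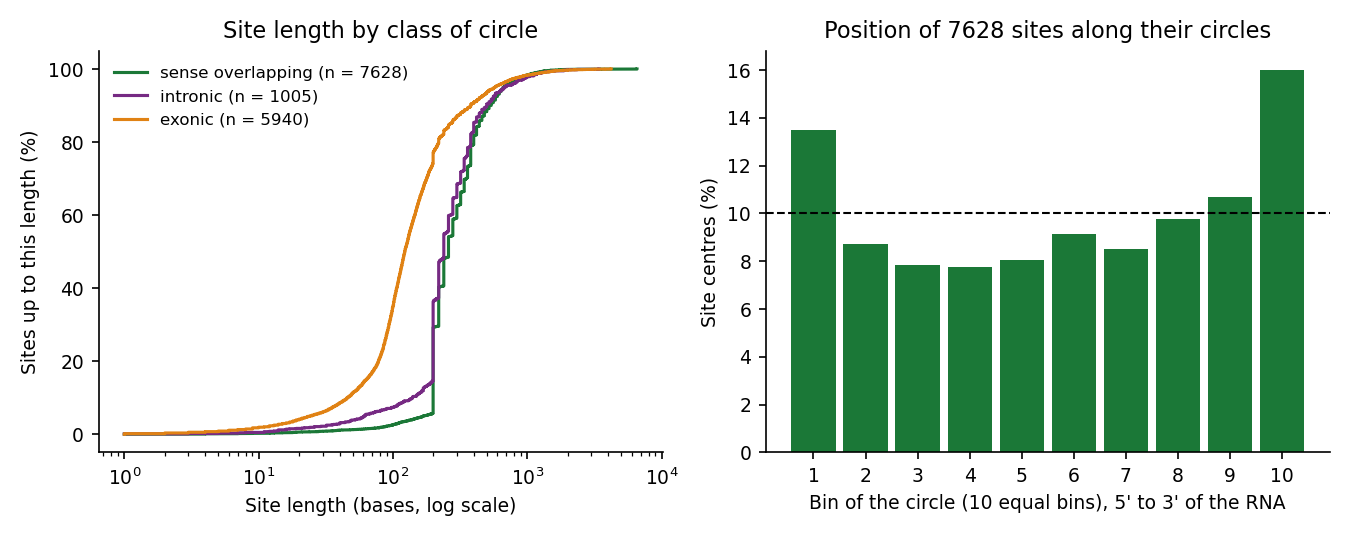
Left, cumulative share of sites by length (log scale) for sense overlapping, intronic and exonic circles. Right, share of the 7628 site centres in each of 10 equal bins of the circle from 5′ to 3′, with a dashed line at an even share, and the outermost bins highest at 13.5% and 16.0%.

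Every site was listed once and for 1 circle, and none shared its coordinates with an entry of another class. By at least 1 base, 28 sites (0.367%) overlapped a site on another class of circle. The genome spans of other listed circles were shared more often, since 604 sites (7.92%) lay inside the span of a listed circle of another class. Counting circles of any class, 863 sites (11.3%) lay inside the span of more than 1 listed circle.

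Neighbouring sites often overlapped, and their listed folds then mostly had opposite directions, counted over all sites whatever their FDR. Of 6567 pairs of adjacent sites on the same circle, 2972 (45.3%) overlapped, by 179 bases at most, and 2713 of these pairs (91.3%) were made of 1 site higher and 1 site lower with sh3-2. Among the 3595 adjacent pairs that did not overlap, 57.6% had the same direction. Joined into stretches, the 7628 sites made 4656 stretches, and 1315 of the 1368 stretches with more than 1 site (96.1%) mixed directions. On exonic circles 88.2% and on intronic circles 92.0% of overlapping pairs were opposite. Few of the 2972 overlapping pairs held a called site, meaning a site past the FDR threshold given below. Both sites were called in 5 of these pairs, 0 of them with the same direction, and 1 site was called in 126. The share of opposite directions thus rests mostly on folds of uncalled sites, and does not show that overlapping sites changed in opposite ways. Overlapping sites can share reads and are not separate measurements.

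The circle of IGF2BP3 itself shows such a stretch. It spans chr7:23416342-23509835 on the minus strand and held 23 sites. Near its 5′ end, 7 overlapping sites ran in genome order from chr7:23508022 to chr7:23509760. Their log2 folds in the authors' deposited table were -1.37, 0.04, -0.20, -0.10, -0.83, 0.06 and -1.50. Past FDR 0.05 were 2 of the 7, both lower, and neither higher site was.

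With sh3-2, slightly fewer sites were higher than lower, and called sites were split evenly. Of the 7628 sites, 3703 (48.5%) were higher and 3925 lower in the authors' deposited table, and the median log2 fold was -0.01, as over all 14636 sites. A site is called here where the authors' FDR was under 0.05. Of the sense overlapping sites 650 (8.52%) were called, against 9.16% of all sites listed. Of these, 325 were higher and 325 lower, where 4.55% and 4.61% of all sites listed were called in each direction. On exonic circles 588 sites (9.90%) and on intronic circles 96 (9.55%) were called. The called share was thus near that of the whole table. A difference between classes was not tested, since the tables hold no m6A value per library. The tables do not state whether the fold was corrected for input, so more methylation and more host RNA cannot be told apart.

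The called sites covered a wide range of folds. Their median fold in the authors' deposited table was 1.82, against 1.49 on exonic and 2.20 on intronic circles. A fold of at least 2 was reached by 280 of the 650 (43.1%) and by 61 of the 588 called exonic sites (10.4%). Of the 96 called intronic sites 51 reached it (53.1%), and of all 1340 called sites 393 (29.3%). Of the 280, 140 were higher and 140 lower. Of all sites listed, 2.69% were both called and at least 2-fold, 1.24% higher and 1.44% lower. At an FDR under 0.01, 200 sense overlapping sites were higher and 212 lower, a threshold that 6.11% of all sites passed. A fold above 10 was listed for 90 called sites (13.8%), 47 higher and 43 lower. The same was so for 2 called exonic sites (0.34%) and 11 called intronic sites (11.5%). Over all classes it was listed for 103 called sites (7.69%), a count that includes the 90. Large folds were thus shared with intronic circles and rare on exonic ones. Among all 211 sense overlapping sites with a fold above 10, 189 (89.6%) had a fold with a single decimal (10 times the fold was whole to within 1e-06), compared with 10 of the 599 sites between 2 and 4. The tables do not say what constant was used where a group was at or near 0, and these folds are given as directions, not as sizes.

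**Figure D3:**
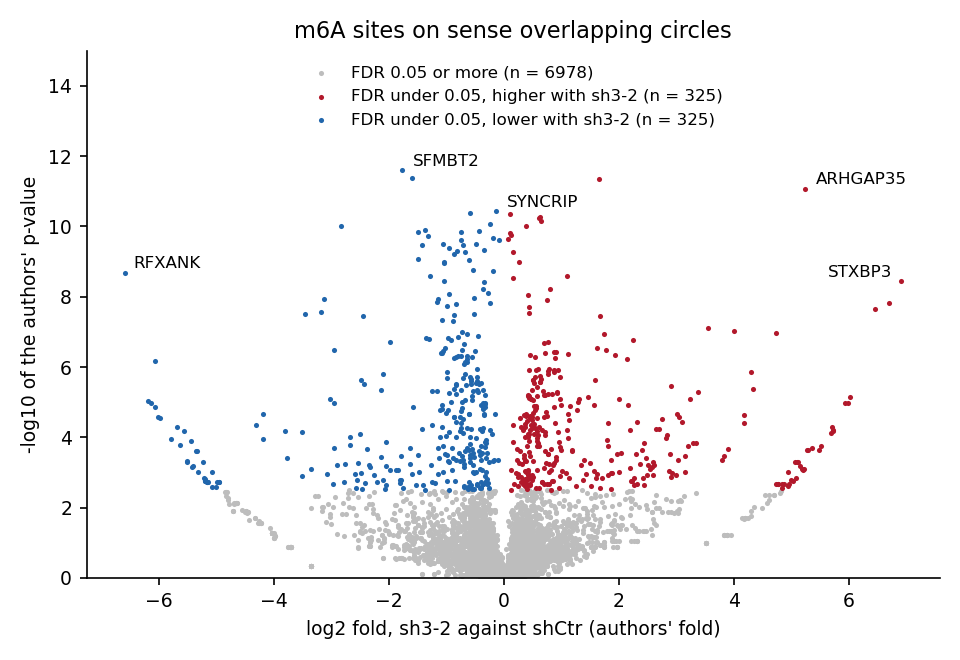
Log2 of the authors' fold, sh3-2 against shCtr, and -log10 of the authors' p-value for the 7628 sites. Red and blue points are the 325 higher and 325 lower sites past FDR 0.05, grey points the others, and a thin arc on each outer side holds sites with folds above 10.

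Called sites were more frequent among long sites and among sites that overlap no other. Of the sites of 199 bases, 4.18% were called, of those from 300 to under 500 bases 10.6%, and of those of 1000 bases or more 32.5%. The median fold of the called sites ran the other way, from 8.17 at 199 bases to 1.45 at 1000 or more. Of 4340 sites in stretches of 2 or more, 113 (2.60%) were called, against 537 of the 3288 sites that overlap no other (16.3%). Near the circle ends, within 500 bases, 10.5% were called with a median fold of 1.505, and beyond 10000 bases 7.92% with a median fold of 2.37. Read depth per site, which the tables do not hold, can move with length, and its part was not tested.

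Among the sites that fell with sh3-2, the smallest FDR in the authors' deposited table belonged to SFMBT2, a Polycomb-group protein, at chr10:7344002-7344200, which was 3.41-fold lower at an FDR of 2.18e-08. A site of CCAT1, a long non-coding RNA of colon cancer, was 3.03-fold lower in the authors' deposited table (FDR 2.88e-08). One of CASC8, another long non-coding RNA, was 7.14-fold lower there (FDR 1.10e-07). The other low FDR values in the authors' deposited table came with smaller folds. FDFT1, the squalene synthase of sterol synthesis, was 1.503-fold lower. EIF3L, a subunit of a translation initiation factor, was 1.19-fold lower. SYNCRIP, an RNA-binding protein of the hnRNP group, was 1.096-fold lower at an FDR of 6.38e-08. A low FDR therefore did not mean a large difference.

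Among the sites that rose, GOLGA1, a golgin of the trans-Golgi, had the smallest FDR in the authors' deposited table, 3.15-fold higher at 3.05e-08. ARHGAP35, a GTPase-activating protein, was 37.8-fold higher at chr19:47428282-47428620. Its 4419-base site at chr19:47421482-47425900 on the same circle was 1.36-fold higher in the authors' deposited table (FDR 0.00452). DYNC1LI2, a dynein chain, was 1.54-fold higher and SETD2, the histone H3 lysine methyltransferase, 1.30-fold higher, at a site that touched the circle's end. The ECI1 and SRSF4 sites of low FDR were 1.07-fold higher each in the authors' deposited table. The largest listed folds were 120.3 for STXBP3, 104.2 for SAMD4A, 88.0 for ATP6V1E2 and 64.7 for ITGB8 among higher sites of the authors' deposited table. Among lower sites there they were 96.1 for RFXANK, 72.8 for KIAA1468, 70.5 for CASP8AP2 and 67.6 for PHACTR4. Each of these 8 sites stood alone in its stretch.

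On 140 circles more than 1 site was called. All called sites were higher on 45 of them, all lower on another 45, and both directions were present on 50. Adjacent called sites that did not overlap had the same direction in 90 of 109 pairs (82.6%). On exonic circles this was so in 130 of 130 pairs. Called sites of 297 of the 348 hosts with any (85.3%) had 1 direction. A host with 1 called site has 1 direction by definition. Of the 365 circles with a called site, 225 held only 1.

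On several circles the called sites all had 1 direction in the authors' deposited table. The circles named for this, with 5 or more called sites each, were picked after their values were seen. Other circles with as many called sites had both directions, those of HIST2H2AA3, ECI1, SH3PXD2A, LARP1B, VSIG2, CEP350, YARS and CASC8. RAD21, a cohesin subunit, had 6 sites on its circle, and all 6 were called lower, by 1.60-fold to 1.68-fold. KTN1, the kinesin receptor kinectin, had 16 sites, all higher, of which 6 were called, at 1.29-fold to 2.19-fold. ANKHD1, an ankyrin repeat protein, had 28 sites, 17 higher and 11 lower. Its 9 called sites were all higher, at 1.31-fold to 2.16-fold. TMF1, a Golgi protein, had 9 sites, all higher, 5 of them called. The called sites of TMF1 include one of only 2 bases at the circle's end, at an FDR of 0.0466. PDLIM7, a PDZ and LIM domain protein of the actin cytoskeleton, had 21 sites, 7 higher and 14 lower. Its 6 called sites were all lower, by 1.82-fold to 2.08-fold. CNOT3, a subunit of the CCR4-NOT deadenylase, had 19 sites, 6 higher and 13 lower. Its 6 called sites were all lower, by 1.47-fold to 3.47-fold. Folds of the called sites within a circle were close together on RAD21 and PDLIM7 and wider on CNOT3. RRP7A had 40 sites, 11 higher and 29 lower, and its 8 called sites were all lower, at 1.19-fold to 11.1-fold. It has a near-identical pseudogene copy, so its reads are uncertain.

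The circle of HIST2H2AA3, a histone H2A gene, had 14 called sites among 28, the highest count of any sense overlapping circle, with 12 higher and 2 lower. Its sites lay in mirror image. To within 40 bases at each edge, 24 of the 28 sites formed 12 pairs that mirror each other around the middle of the circle. Both sites were called in 6 pairs, and the log2 folds within those pairs differed by at most 0.03. The gene has a near-identical inverted copy in this histone cluster, so the mirrored sites are not separate measurements.

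**Figure D4:**
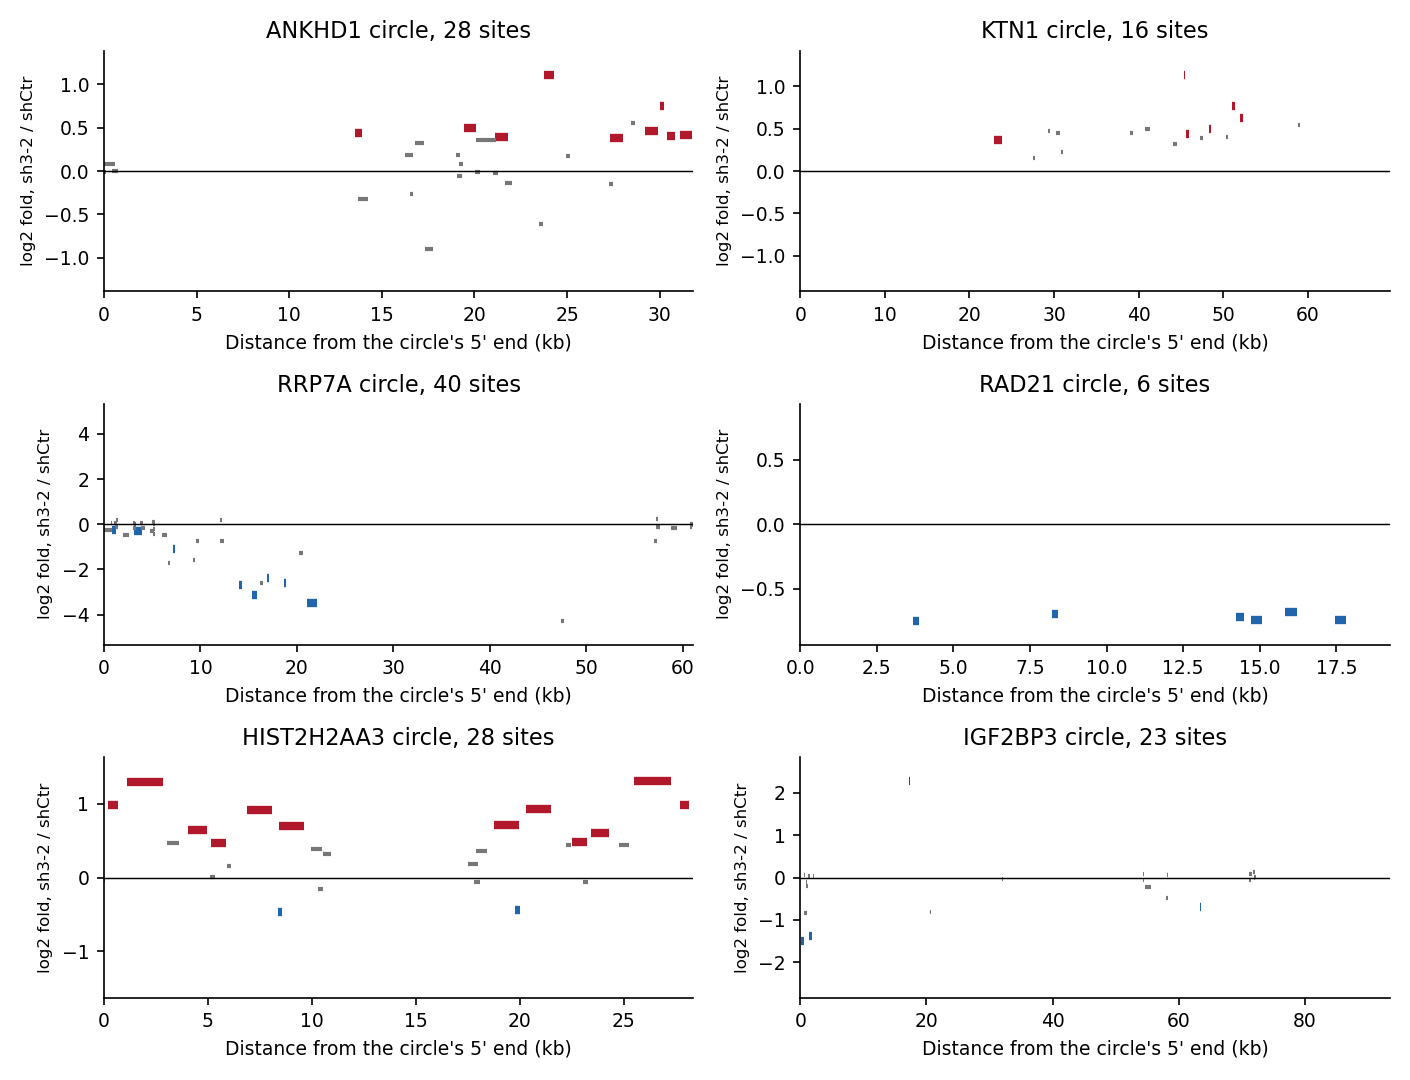
Sites of 6 circles by distance from the circle's 5′ end in kb and log2 of the authors' fold, sh3-2 against shCtr. Red and blue bars are sites called higher and lower, grey bars are not called, bar width is site length, and the HIST2H2AA3 panel is symmetric about its middle.

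By host list, counts per list were small, and each called share is read against the 9.16% of all sites listed. The genes of circRNA biogenesis and turnover had 44 sites, 1 called higher and 9 called lower (22.7% called), and their median log2 fold was -0.46 against -0.01 over all sites. ADARB1, an adenosine-to-inosine RNA editing enzyme, had 7 of the 9, all lower, led by chr21:46555242-46555620 at 1.65-fold in the authors' deposited table (FDR 1.97e-05). TNRC6B, a partner of Argonaute in microRNA silencing, had 1 site 2.82-fold higher in the authors' deposited table.

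The TGF-beta and SMAD list had 24 sites, 2 called higher and 6 lower (33.3% called), and their median log2 fold was -0.41. SMAD6, an inhibitory SMAD, had 3 sites that fell by 1.78-fold to 2.13-fold in the authors' deposited table. SMAD2, which carries the signal of TGF-beta receptors to the nucleus, had 5 sites on 2 circles. Its site at chr18:45423002-45423380 was 1.83-fold lower (FDR 3.85e-07) and that at chr18:45374762-45374960 was 1.78-fold lower (FDR 0.000408) in the authors' deposited table. SKIL, a repressor of SMAD signalling, was 1.45-fold lower. SMAD5 and the receptor TGFBR2 were 1.46-fold and 1.31-fold higher. HECTD2 had no site on a sense overlapping circle.

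The m6A writers, erasers and readers had 34 sites, 1 called higher and 4 lower (14.7% called). Of these, 4 were on the IGF2BP3 circle. In the authors' deposited table they were 2.58-fold lower at chr7:23508022-23508520, 2.82-fold lower at chr7:23509222-23509760, 1.63-fold lower at chr7:23446222-23446420 and 4.82-fold higher at chr7:23492422-23492660 (FDR 0.0393). METTL3, the catalytic subunit of the writer, was 1.23-fold lower. The junction of the IGF2BP3 circle had 2 reads in shCtr A and 0 in the other 8 libraries, which does not allow a check of the knockdown.

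Zinc finger genes had 254 sites, 14 called higher and 2 lower, and their median log2 fold was 0.01. Called sites were on 12 hosts, and on 10 of them all were higher. ZNF510 had 4 called sites, 3 higher and 1 lower. Their called share of 6.30% was below that of all sites, so the imbalance rests on 16 sites. The small GTPase regulators had 7 called higher and 2 lower among 91 sites (9.89%), close to the share of all sites. Adhesion, matrix and cytoskeleton genes had 5 called higher and 2 lower among 22 (31.8%), with LAMB1, a laminin chain, at 1.36-fold and 1.40-fold higher in the authors' deposited table. Centrosome, kinesin and mitosis genes had 6 called higher and 4 lower among 153 (6.54%), and chromatin regulators 5 higher and 6 lower among 281 (3.91%). Receptor kinase, PI3K and MAPK genes had 3 called in each direction among 57 (10.5%). Ubiquitin ligases and deubiquitinases had 1 called site among 53 (1.89%), in RNF13, 2.398-fold lower. No host was on the lists of squamous epithelial, fibroblast and endothelial or immune markers, so these circles give no check of the cell type.

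Circles with sites had few junction reads. Of the 1061 circles, 897 (84.5%) were listed among the counted circles, where they were 58.7% of the 1529 sense overlapping circles. A circle had a median of 3 reads over 9 libraries, 670 of 897 (74.7%) had reads in 1 library, and 2 had reads in all 9. The 632 sense overlapping circles without a site were alike. Their median was 3 reads, 463 (73.3%) had reads in 1 library, and 1 had reads in all 9. Libraries held 3775 to 5846 junction reads, so 0 reads in a library leave room for a share of 0.0513% to 0.0795% at most (3 counts of its total, counting error only). The sh3-2 libraries were the shallowest, at 3869, 3775 and 4168 junction reads. The shCtr libraries held 5502, 5552 and 5818, and the sh3-1 libraries 5023, 5846 and 5732. The number of sites on a circle and its reads over 9 libraries had a Spearman correlation of 0.01, over 897 circles.

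Per 1000 junction reads, circles with a site took 77.2, 71.9 and 78.4 in the shCtr libraries, 78.6, 77.9 and 80.9 in the sh3-2 libraries and 66.5, 62.1 and 63.0 in the sh3-1 libraries. The sh3-2 values overlapped the control values, and the sh3-1 values lay below both. The means were 75.8 ± 3.48 in shCtr, 79.1 ± 1.56 in sh3-2 and 63.9 ± 2.33 in sh3-1 (SD, n = 3 each). The exact two-sided permutation p was 0.2 for sh3-2 and 0.1 for sh3-1 against shCtr, and 0.1 is the smallest that 3 against 3 libraries allow. The difference of 3.27 between sh3-2 and shCtr was 1.29 without shCtr B. Sense overlapping circles without a site had 53.8 ± 1.12 in shCtr, 58.2 ± 10.2 in sh3-2 and 45.3 ± 2.35 in sh3-1. The lower sh3-1 value was thus not limited to circles with a site. As counts, circles with a site had 425, 399 and 456 reads in shCtr, 304, 294 and 337 in sh3-2 and 334, 363 and 361 in sh3-1. The sh3-2 shares rest on the smallest library totals, and the part of depth was not tested.

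The 304 counted circles with a called site took, per 1000 reads, 27.1, 27.2 and 27.3 in shCtr, 24.3, 18.8 and 26.9 in sh3-2 and 23.9, 18.5 and 21.8 in sh3-1. All 6 hairpin values lay below all 3 control values, though the sh3-2 C value did so narrowly. Each comparison with shCtr had an exact two-sided permutation p of 0.1, and they share their controls. Circles whose called sites were all higher had 10.8 ± 0.125 in shCtr and 10.8 ± 1.69 in sh3-2 (SD, n = 3 each; exact permutation p = 1). Circles whose called sites were all lower had 12.8 ± 1.32 and 10.7 ± 3.05 (exact permutation p = 0.4). Circles with called sites in both directions had 3.64 ± 1.07 and 1.87 ± 0.402, and the libraries of the groups did not overlap (exact permutation p = 0.1). Circles with no called site had 48.6 ± 3.46 in shCtr and 55.8 ± 2.86 in sh3-2, where all 3 sh3-2 values lay above all 3 control values (exact permutation p = 0.1). Their difference had the opposite sign to that of the circles with a called site.

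**Figure D5:**
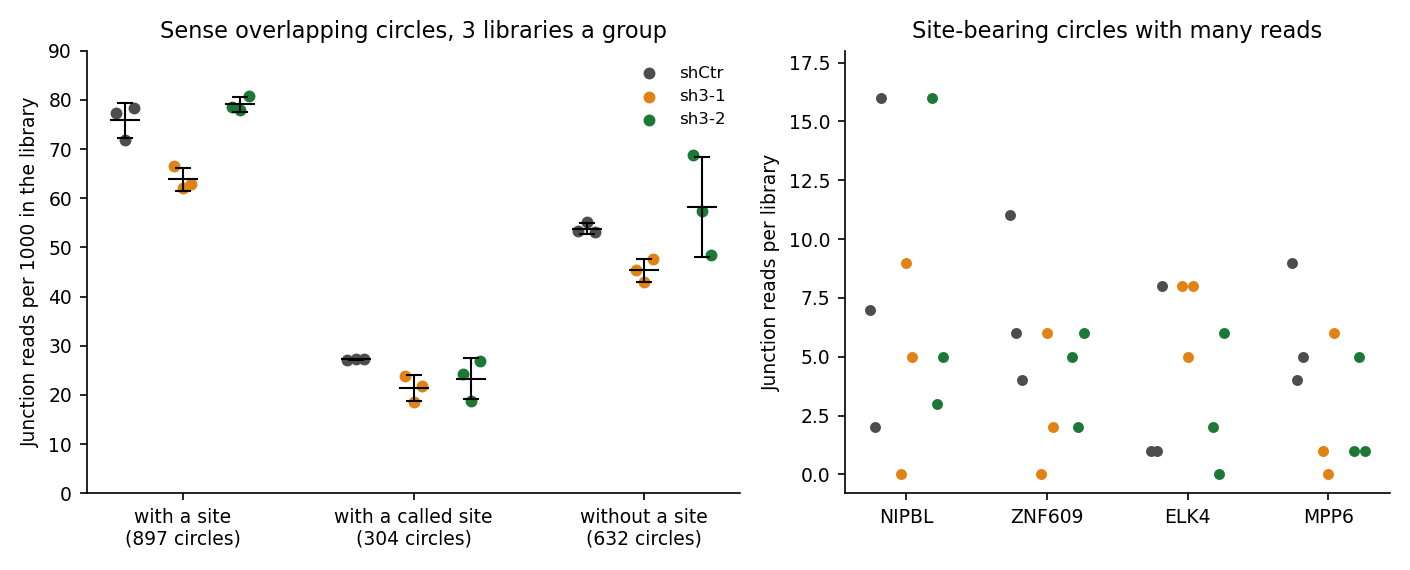
Left, junction reads per 1000 in each library for sense overlapping circles with a site, with a called site and without a site, with the mean and SD of 3 libraries per group. Right, junction reads per library of 4 of the 5 site-bearing circles with most reads, where groups overlap for each.

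The site-bearing circle with most reads was that of NIPBL, the cohesin loader, with 7, 2 and 16 reads in shCtr, 0, 9 and 5 in sh3-1 and 16, 3 and 5 in sh3-2. The circle of ZNF609, a zinc finger gene known for an abundant circle in muscle cells, had 11, 6 and 4 reads in shCtr, 0, 6 and 2 in sh3-1 and 5, 2 and 6 in sh3-2. Its 6 sites filled 1 stretch of the 874-base circle at chr15:64791492-64792365, 3 higher and 3 lower, and none was called. ELK4, an ETS transcription factor, had 1, 1 and 8 reads in shCtr, 8, 5 and 8 in sh3-1 and 2, 0 and 6 in sh3-2, on a circle with 12 sites and no call. MPP6, a membrane scaffold protein, had 9, 4 and 5 reads in shCtr, 1, 0 and 6 in sh3-1 and 1, 5 and 1 in sh3-2, with 1 of its 10 sites called lower. The groups overlapped for each of these circles.

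In the edgeR quasi-likelihood test of sh3-2 against shCtr, 24 circles passed the filter on low counts, 0 were called (0% at FDR 0.05, 1 at an unadjusted p under 0.05), and none of them was a sense overlapping circle with a site. Without that filter 670 of these circles entered, 0 were called and 2 had an unadjusted p under 0.05. DESeq2 also called 0. With the filter, the junction reads of single site-bearing circles were therefore not tested, since their counts were too low to pass it.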

How the data were processed

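The submitters' processing notes name hg19 as the build and list STAR 2.5.1b, cutadapt 1.9.3 and edgeR 3.16.5, with the site caller not given in the sources used here. For every m6A site the deposited sheets hold a fold (the authors' ratio, never under 1, with its direction in a separate column), the authors' p-value and FDR, a score equal to the −log10 of that p-value, and a length. They hold no value per library, so the planned test on library values was not possible and the authors' values are described. The deposited circRNA sheets give counts of junction reads per circle and library. The 24 deposited log2 CPM columns were not used. A circle missing from a hairpin's sheets was given 0 reads.

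Coordinates are 1-based. Distances run from the site centre to the nearer circle end. Junction reads were tested with edgeR 4.0.16 (quasi-likelihood, TMM, filterByExpr, Benjamini-Hochberg) and also with DESeq2 1.42.0. The edgeR test was also run on simulated counts, with the outcome not given here. Shares per 1000 reads were compared by exact permutation. Tools were R 4.3.3, Python 3.11.15, scipy 1.17.1 and pandas 2.3.3. The spread behind these p-values is that of the libraries and may be technical only.

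Sites named are the 8 of smallest FDR and 4 of largest fold per direction, the 5 circles with most sites and with most reads, up to 3 called sites per host list, and every site on IGF2BP3, HECTD2 and SMAD2 circles, given in part as counts. The members, host lists and rules were chosen with earlier results of these data known. Results of some named items are not reported here.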

Additional observations from a re-analysis of the deposited data

How the results depend on the processing

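The counts of 325 sites called higher and 325 called lower became 200 and 212 at an FDR under 0.01, 140 and 140 with a fold of at least 2, and 191 and 174 with 1 site per circle. They were 325 and 325 over every entry and 317 and 320 over sites of at least 100 bases. Under alternatives chosen after seeing the data they were 320 and 319 with 1 site per stretch and 306 and 310 without genes with near-identical copies. The median log2 fold stayed at -0.01 under its 4 alternatives. The share of sites within 500 bases of a circle end, 17.1%, was 19.4% from the nearest edge, 10.2% at 200 bases and 30.8% with 1 site per circle. Overlap with another class, 0.367% at 1 base, was 0.236% at 50% of the shorter site. The sh3-2 minus shCtr difference in junction reads per 1000 ranged from 1.29 to 4.55 when single libraries were left out. With the replicate block it was 3.27 (exact sign-flip p = 0.25), and edgeR with the block called 0 circles. Correlations of deviations between libraries of the same letter were 0.03, 0.00 and 0.00 for A, B and C, so the letters were not taken to pair the samples. Leaving out a library left 25 to 47 circles tested and 0 or 1 site-bearing circle among them, with 0 called. Depth limits the reads of single circles, and the depth behind each m6A site is unknown.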

Other observations

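Of the 962 hosts, 228 (23.7%) also had m6A sites on exonic circles, and 23 had called sites in both classes. In 21 of these the called sites of each class had 1 direction. That is so by definition where a class has 1 called site, as both classes had for DHTKD1, INTS7, MED13, MPZL1, SETD2 and TGFBR2. Only ADARB1, ERC1, RANGAP1 and TRIP13 had more than 1 called site in each class. The direction was the same in both classes for 19 hosts, higher for 11 and lower for 8, and opposite for 2. ADARB1 had 7 called sites on sense overlapping and 2 on exonic circles, all lower. DENND5B, a Rab regulator, had 1 and 6, all higher, and RANGAP1, the GTPase activator of nuclear transport, 2 and 4, all lower. MAP4, a microtubule-associated protein, and ZNF148 were the opposite cases. Both classes were measured in the same libraries and share the host's RNA, and no test was made.

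Sites were listed for 164 circles (15.5%) that are not among the counted circles, and these held 1387 sites, of which 101 (7.28%) were called. A further 227 site-bearing circles had 0 reads in the shCtr and sh3-2 libraries. Most sites, 7048 (92.4%), had a host transcript with a RefSeq mRNA accession, and 603 of these (8.56%) were called, against 23 of the 318 sites (7.23%) with a RefSeq non-coding accession.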
